A study of Mus musculus with 6 samples.

Results

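The genes described here are the 4 transcription factors of the TCF/LEF family (Lef1, Tcf7, Tcf7l1 and Tcf7l2), the β-catenin gene Ctnnb1, and 5 genes known as Wnt feedback or receptor genes (Axin2, Nkd1, Rnf43, Znrf3 and Lgr5), measured in N2A-A5 mouse neuroblastoma cells. They were found by gene symbol, and all 10 have a row among the 40413 genes of the count table. The set was proposed with results of this comparison known, and was in that sense selected on the counts at 0 h and 96 h themselves, so the differences of these 10 genes between 0 h and 96 h are given as a description and no p-value is attached to them. RNA was sequenced from 6 libraries of N2A-A5 cells, which the labels call acceptor cells and which derive from N2A (Neuro-2a), a mouse neuroblastoma line. At 0 h the cells were undifferentiated, in medium with 10% fetal bovine serum and 10 µg/mL blasticidin and without retinoic acid (3 libraries). The 96 h cells (3 libraries) had received 10 µM retinoic acid in 1% serum, with blasticidin left out of the medium. Serum, retinoic acid, blasticidin and time differ together between the groups and cannot be told apart. Each group's libraries are described as biological replicates of this 1 line; separate cultures are not stated, so p-values measure the spread between these libraries.

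Wnt proteins bind Frizzled receptors and LRP co-receptors at the cell surface, which stops a cytoplasmic destruction complex from degrading β-catenin. β-catenin then enters the nucleus and binds TCF/LEF factors, which sit on DNA through a high mobility group domain and otherwise recruit corepressors of the Groucho/TLE family. Some of the genes switched on in this way dampen the pathway: Axin2 is a scaffold of the destruction complex, Nkd1 binds Dishevelled, and Rnf43 and Znrf3 are membrane ubiquitin ligases that remove Frizzled receptors unless R-spondins engage Lgr4, Lgr5 or Lgr6. The pathway acts in the neural crest, from which the sympathetic neuroblasts that give rise to neuroblastoma descend.

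The promoters of the 2 TCF/LEF genes with the largest opposite shifts, and that of Axin2, the most widely used readout of the pathway, are shown for reference. Each line holds the 250 bases before an annotated transcription start, 5′ to 3′ on the gene's strand, from RefSeq on build GRCm38.p6, an earlier build than that named for the counts (mm39). Capitals mark matches to the TCF/LEF core, searched on both strands as CTTTGAA, as CTTTGAT, as CTTTGTA and as CTTTGTT, which do not overlap one another on a strand.
Lef1, first annotated start, chr3:131110047-131110296, plus strand: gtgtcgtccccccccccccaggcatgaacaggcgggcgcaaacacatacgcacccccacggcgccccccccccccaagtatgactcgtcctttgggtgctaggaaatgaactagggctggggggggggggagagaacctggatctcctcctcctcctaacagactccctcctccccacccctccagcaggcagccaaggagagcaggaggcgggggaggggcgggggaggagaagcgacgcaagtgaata
Lef1, start inside the gene, chr3:131156044-131156293, plus strand: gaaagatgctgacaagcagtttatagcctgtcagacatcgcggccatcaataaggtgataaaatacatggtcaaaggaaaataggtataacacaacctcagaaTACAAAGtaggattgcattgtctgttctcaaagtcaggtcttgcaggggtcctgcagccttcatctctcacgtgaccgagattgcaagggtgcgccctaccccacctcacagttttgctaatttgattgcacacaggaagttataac
Tcf7l2, first annotated start, chr19:55741560-55741809, plus strand: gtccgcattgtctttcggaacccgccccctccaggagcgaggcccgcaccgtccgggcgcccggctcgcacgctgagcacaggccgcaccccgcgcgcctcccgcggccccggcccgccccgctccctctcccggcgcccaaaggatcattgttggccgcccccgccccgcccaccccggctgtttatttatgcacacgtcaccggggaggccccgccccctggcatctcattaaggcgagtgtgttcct
Tcf7l2, start inside the gene, chr19:55895071-55895320, plus strand: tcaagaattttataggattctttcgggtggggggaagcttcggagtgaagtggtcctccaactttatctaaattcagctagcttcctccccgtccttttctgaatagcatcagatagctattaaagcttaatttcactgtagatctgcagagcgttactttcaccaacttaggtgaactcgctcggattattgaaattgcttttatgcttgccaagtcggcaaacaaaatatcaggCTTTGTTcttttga
Axin2, chr11:108920099-108920348, plus strand: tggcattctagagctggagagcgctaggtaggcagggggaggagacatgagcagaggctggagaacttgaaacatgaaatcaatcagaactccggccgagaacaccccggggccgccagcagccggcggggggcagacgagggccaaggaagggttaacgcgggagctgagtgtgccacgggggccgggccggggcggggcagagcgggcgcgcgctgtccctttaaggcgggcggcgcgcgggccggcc

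Of the 10 genes, 8 had an entry in the promoter table, with 15 windows in all; Znrf3 and Lgr5 had none. A match was present in 2 of these 15 windows, and in 14.8% of all 32851 windows of the same length. Both lay before a start inside the gene, at position -147 from the start in Lef1 and at -14 in Tcf7l2. The windows before the first annotated starts of Lef1 and Tcf7l2 and the single window of Axin2 held none of these letters. The first-start windows were 66.4% G+C in Lef1, 72.8% in Tcf7l2 and 69.2% in Axin2, against a median of 52.4% over all windows. The windows with a match were 44.8% (Lef1) and 40.8% (Tcf7l2). Lef1 windows not shown, at chr3:131110073-131110322 (66.4% G+C) and, inside the gene, at chr3:131112541-131112790 (50.8%), held no match. The counts are summed per gene, so they do not say which start was used.

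Library totals were between 16.8 M and 20.9 M counts (M for mega). Estimated counts were scaled to a depth of 1 M counts (CPM) with TMM factors, and genes were tested with edgeR's quasi-likelihood test at a Benjamini-Hochberg adjusted p of 0.05. Among all 13705 genes tested, 57.4% passed, 28.7% higher and 28.8% lower at 96 h, and in 64.1% the groups had no overlapping values. Scaling by library totals alone, without TMM factors, moved the median of all log2 fold changes by -0.25 and gave 2409 higher and 5849 lower genes in place of 3927 and 3942. The predicted gene Gm26917 took 18.7% to 22.7% of counts at 0 h and 28.7% to 31.7% at 96 h. Without it and the mitochondrial and ribosomal RNA genes, 3911 genes were higher and 3984 lower. The members then passed in the same numbers (4 higher and 2 lower). The part of Gm26917 alone was not tested. The sympathetic neuroblast markers Hand2 (381 ± 13 CPM at 0 h and 311 ± 6.6 at 96 h) and Tubb3 (383 ± 2.6 and 259 ± 4.3) were abundant in both groups.

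Lef1 went from nearly absent to the most abundant TCF/LEF transcript, Tcf7l2 was at 32.6% and Ctnnb1 at 54.7% of the 0 h mean, and the feedback gene Axin2 was 2.03-fold higher. Of the 8 members that passed the filter on low counts, 4 were higher (Lef1, Tcf7, Tcf7l1 and Axin2) and 2 lower (Tcf7l2 and Ctnnb1), beside 57.4% of all genes. By at least 2-fold, 3 were higher (Lef1, Tcf7l1 and Axin2) and 1 lower (Tcf7l2), beside 11.7% and 3.77% of all genes (15.5% in either direction). All 6 had groups without overlap, beside 64.1% of all genes, or 56% that also passed. Nkd1 and Znrf3 did not pass. Lgr5 and Rnf43 were removed by the filter. Because this contrast chose the members, nothing is read from these counts.

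**Figure D1:**
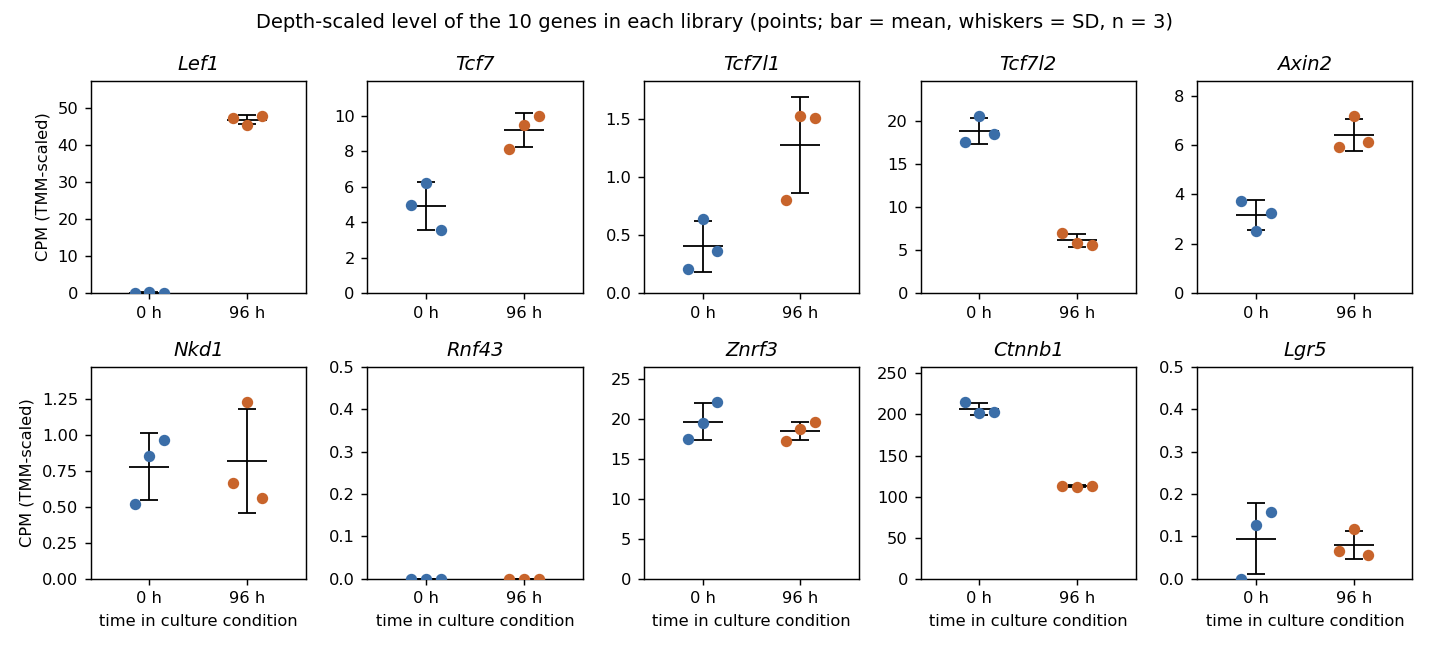
Depth-scaled level (CPM, y axis from 0, own scale in each panel) of the 10 genes in the 3 libraries at 0 h (blue) and the 3 at 96 h (orange). Points are libraries, horizontal bars means and whiskers SD; Lef1 sits at 45.3 to 47.7 CPM at 96 h against at most 0.256 at 0 h, and the groups overlap for Nkd1, Znrf3 and Lgr5.

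Lef1, the lymphoid enhancer factor, which is itself a known Wnt target in many tissues, had 0, 6 and 3 counts at 0 h and 710, 775 and 856 counts at 96 h (replicates 1, 2 and 3). As CPM these were 0, 0.256 and 0.157 at 0 h and 47.3, 45.3 and 47.7 at 96 h. No library at 0 h came near any at 96 h, and the 96 h libraries lay close together, with a coefficient of variation of 2.72%. The log2 fold change was 8.27 ± 0.22 (SE), and the ratio of the summed counts, each divided by its group's TMM-scaled depth, was 322, with a 95% interval of 169 to 705 for counting error alone. The 0 h mean rests on 9 counts, so the size of the fold is set by those few reads: it ran from 7.74 to 9.10 (log2) when 1 library was left out at a time.

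Tcf7, which encodes TCF1, was at 4.96, 6.22 and 3.55 CPM at 0 h and 8.13, 9.47 and 9.97 CPM at 96 h. Every 96 h library was above every 0 h library, with a log2 fold change of 0.90 ± 0.20. Tcf7 overlaps Skp1, a ubiquitin ligase subunit gene that went from 247 ± 5.9 to 162 ± 7.7 CPM, and how reads of the overlap were split is not given in the sources used here. Tcf7l1, which encodes TCF3, a family member known mainly as a repressor, stayed low at 0.207, 0.639 and 0.366 CPM at 0 h and 0.799, 1.52 and 1.50 CPM at 96 h. Its lowest 96 h library lay just above its highest 0 h library (log2 fold change 1.62 ± 0.51, from 26 summed counts to 65). Tcf7l1 did not pass without 0 h replicate 1 (log2 fold change 1.31), without 96 h replicate 2 (1.48) or without 96 h replicate 3 (1.48).

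Tcf7l2, which encodes TCF4, was the main TCF/LEF transcript at 0 h. It was at 17.6, 20.6 and 18.6 CPM at 0 h and 6.99, 5.84 and 5.62 CPM at 96 h. The groups were far apart beside their spread, and the log2 fold change was -1.62 ± 0.13, or 3.08-fold lower.

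Because a longer RNA gives more fragments, the 4 factors were compared per kilobase of the longest annotated RNA (GENCODE M21). On this scale the order of levels at 0 h was Tcf7l2 (5.09 ± 0.41 CPM per kb, SD), Tcf7 (1.99 ± 0.54), Tcf7l1 (0.133 ± 0.072) and Lef1 (0.0376 ± 0.035), with Tcf7l1 and Lef1 resting on 26 and 9 summed counts. At 96 h it was Lef1 (12.8 ± 0.35), Tcf7 (3.72 ± 0.39), Tcf7l2 (1.66 ± 0.20) and Tcf7l1 (0.419 ± 0.14), each apart from its neighbour by more than the SDs. Tcf7l2 therefore gave 69.5%, 66.4% and 75.7% of the summed level in the 0 h libraries and 10.2%, 8.60% and 7.93% in the 96 h libraries. Lef1 gave 0%, 0.838% and 0.649% at 0 h and 70.4%, 67.7% and 68.3% at 96 h. The share of Tcf7 was 21.8% to 30.2% at 0 h and 17.9% to 21.1% at 96 h, while its own level was higher at 96 h. The 4 factors summed to 7.25 ± 0.95 CPM per kb at 0 h and 18.6 ± 0.43 at 96 h, and without Lef1 to 7.21 ± 0.92 and 5.79 ± 0.32. Without length correction, the CPM of Tcf7 per library was 0.191 to 0.303 times that of Tcf7l2 at 0 h. At 96 h it was 1.16 to 1.77 times.

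**Figure D2:**
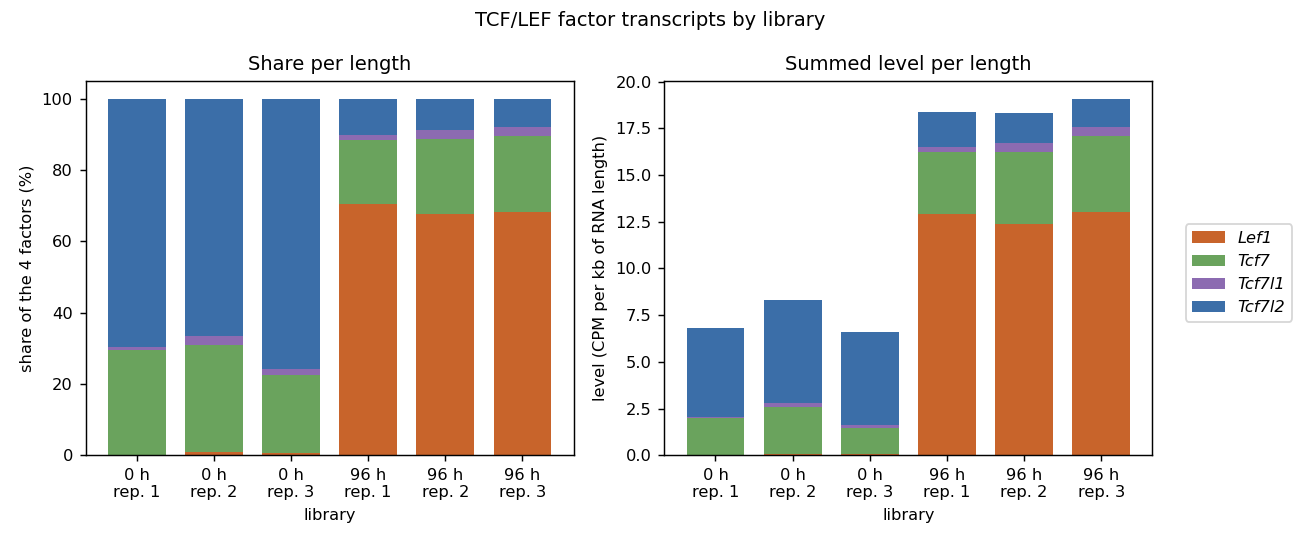
Makeup of the TCF/LEF family in each of the 6 libraries, as the share of the 4 factors (left, %) and as their summed level (right, CPM per kb of RNA length). Tcf7l2 fills 66.4% to 75.7% of each 0 h bar, and Lef1 67.7% to 70.4% of each 96 h bar.

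Ctnnb1 encodes β-catenin, which serves both as the partner of TCF/LEF factors and as a link between cadherins and actin. It was at 215, 202 and 202 CPM at 0 h and 113, 112 and 113 CPM at 96 h. The 96 h libraries were nearly equal and well under all 0 h libraries, and the log2 fold change was -0.87 ± 0.05. Per length it was the most abundant of the 10 genes in both groups (57.0 ± 2.0 and 31.2 ± 0.17 CPM per kb).

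Axin2 was at 3.72, 2.51 and 3.24 CPM at 0 h and 5.93, 7.16 and 6.13 CPM at 96 h. The groups did not overlap, and the log2 fold change was 1.02 ± 0.21, from 193 summed counts to 321. With 1 library left out at a time it ran from 0.87 to 1.15, on both sides of 2-fold. Znrf3 was at 17.5, 19.4 and 22.1 CPM at 0 h and 17.3, 18.7 and 19.5 CPM at 96 h. The groups overlapped (log2 fold change -0.09 ± 0.10), and the gene passed as lower when scaled by library totals alone (-0.33). Without length correction, the CPM of Axin2 was 0.129 to 0.213 times that of Znrf3 at 0 h and 0.313 to 0.383 times at 96 h. Nkd1 was at 0.516, 0.852 and 0.967 CPM at 0 h and 0.666, 1.23 and 0.559 CPM at 96 h. Its libraries were mixed between the groups, and its log2 fold change of 0.05 ± 0.47 turned to -0.20 when scaled by library totals alone, -0.18 without 0 h replicate 1 and -0.37 without 96 h replicate 2.

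Rnf43, the other ligase of the pair, had 0 counts in all 6 libraries. The groups held 56.8 M counts at 0 h and 54.7 M at 96 h. Divided by these depths after TMM scaling, a floor of 3 counts over a group allows a level of up to 0.0484 CPM at 0 h and 0.0599 CPM at 96 h, for counting error alone. Lgr5, an R-spondin receptor and stem cell marker of several epithelia, had 0, 3 and 3 counts at 0 h and 1, 2 and 1 at 96 h. The ratio of its summed counts after division by TMM-scaled depth was 0.825, with a 95% interval of 0.171 to 3.48, so no difference was detectable at this depth.

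The other genes of the pathway were taken from 10 lists by role, 184 genes in all and none of them a member. Of 119 that were tested, 33 were higher and 46 lower at 96 h, or 66.4% called beside 57.4% of all genes, with a median log2 fold change of -0.07 beside 0.03. Scaling by library totals alone gave 21 and 62. Counts under that scaling are given with each list as totals-scaled. Beside the 57.4%, the share called was 62.5% (ligands), 50% (acylation and release), 45.5% (receptors), 50% (R-spondins and LGR receptors) and 71.4% (antagonists). It was 57.7% (Dishevelled and destruction complex), 83.3% (nuclear cofactors), 54.5% (other targets), 77.8% (planar polarity) and 75% (cadherins and catenins). The lists were written with earlier results of these data known, and most genes named from them were picked for passing the test. Their shares and adjusted p-values are therefore a description and not independent evidence.

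Among ligand genes, 5 of 8 tested (19 listed) were higher at 96 h and 0 lower (totals-scaled, 5 and 0). That was 62.5% called, beside 57.4% of all genes, and 3 did not pass. At an unadjusted edgeR p under 0.05, or by DESeq2 or limma-voom, 0 were lower. The median log2 fold change was 0.87. Wnt5a, a ligand known mainly for non-canonical signalling, was at 5.89, 4.55 and 4.14 CPM at 0 h and 16.5, 15.4 and 15.3 CPM at 96 h, 3.24-fold higher (edgeR adjusted p = 3.74e-07). Wnt6 rose from 0.252 ± 0.13 to 1.03 ± 0.09 CPM (edgeR adjusted p = 0.00492). Wnt7b, chosen after its values were seen, was by far the most abundant ligand gene: per length it made up 98.5% ± 0.29 of the summed ligand level at 0 h and 97.7% ± 0.47 at 96 h. It rose 1.53-fold, from 625 ± 74 to 954 ± 192 CPM. In the list for acylation and release, 1 of 4 tested genes was higher and 1 lower (totals-scaled, 0 and 1). The glypican gene Gpc6 fell 2.46-fold, while Wls, which carries Wnt proteins to the surface, rose only 1.23-fold. Wls did not pass when totals-scaled (log2 fold change 0.05), with the DESeq2 Wald test or with no filter. Nor did it pass in 5 of the 6 fits that left out 1 library (0.18 to 0.32).

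Of 11 receptor and co-receptor genes tested, 4 were lower and 1 higher (totals-scaled, 6 and 0). The count of higher genes was 2 without replicate 1 or 2 at 0 h or without replicate 1 at 96 h. Fzd5 fell from 12.5 ± 0.45 to 4.58 ± 1.2 CPM (edgeR adjusted p = 1.19e-05, log2 fold change -1.44 ± 0.18) and Ryk, a receptor-like kinase, fell by 0.66 ± 0.08 on the log2 scale. Fzd4 rose 1.35-fold, a call that ended when totals-scaled (log2 fold change 0.19). Of the R-spondins and the other LGR receptors, 2 of 6 genes were tested, 1 higher and 0 lower, also 0 lower by DESeq2 or limma-voom (totals-scaled, 1 and 1). Lgr6, a relative of Lgr5, rose from 0.155, 0.128 and 0 CPM to 5.40, 6.20 and 4.29 CPM (log2 fold change 5.68 ± 0.47, from 6 summed counts to 264, edgeR adjusted p = 2.26e-07). Lgr4 did not pass (9.33 and 7.67 CPM in the means) but was called lower when totals-scaled, and the R-spondin genes were too low to test, Rspo3 with 0 counts in all libraries.

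Of 7 antagonist genes tested, 3 were higher and 2 lower (totals-scaled, 2 and 3). Apcdd1, a membrane inhibitor of Wnt reception and itself a known Wnt target, fell from 20.8 ± 1.0 to 4.29 ± 0.29 CPM (edgeR adjusted p = 2.50e-09, log2 fold change -2.28 ± 0.12). Dkk1, a secreted blocker of LRP co-receptors, fell from 105 ± 5.6 to 58.6 ± 4.0 CPM (log2 fold change -0.84 ± 0.06). Draxin rose 2.73-fold and Shisa2, which holds Frizzled receptors in the endoplasmic reticulum, 6.90-fold from a low level (0.255 ± 0.085 to 1.81 ± 0.56 CPM).

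In the cytoplasm, of 26 tested genes of Dishevelled and the destruction complex, 5 were higher and 10 lower (totals-scaled, 4 and 20). Frat1 and Frat2, which bind GSK3, rose by log2 fold changes of 1.92 ± 0.27 and 1.29 ± 0.30. Usp7, a deubiquitinase, fell by 0.72 ± 0.05 on the log2 scale. Amer1 had a log2 fold change of -0.72 ± 0.28 (edgeR adjusted p = 0.0415), a call lost without 0 h replicate 1 (-0.53), without 96 h replicate 1 (-0.74) and without 96 h replicate 3 (-0.51), and with upper-quartile factors (-0.64). Neither GSK3 gene passed: the log2 fold change was 0.01 ± 0.08 for Gsk3a and 0.01 ± 0.04 for Gsk3b.

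All 24 nuclear cofactors of TCF/LEF factors were tested, and 16 were lower and 4 higher (totals-scaled, 17 and 3), 83.3% called beside 57.4% of all genes, with a median of -0.26. None of the falls reached 2-fold. Tbl1x, a corepressor exchange factor, fell by 0.66 ± 0.05 on the log2 scale and Bcl9l, which bridges β-catenin to Pygopus, by 0.64 ± 0.07. Hbp1, known as a repressor of Wnt target genes, rose (log2 fold change 1.19 ± 0.09, edgeR adjusted p = 1.09e-07), as did Pygo1 (1.14 ± 0.22). The TLE genes were mixed. Tle1 (0.83 ± 0.16, from 12.5 to 22.2 CPM) and Tle4 (0.35, from 37.1 to 47.4 CPM) rose. Tle3 (-0.23, from 193 to 165 CPM) and Tle5 (-0.16, from 103 to 92.6 CPM) fell, and Tle2 did not pass.

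Of 28 other widely used target genes, 11 were tested, and 4 were higher and 2 lower (totals-scaled, 2 and 3). Without 96 h replicate 3, the count of higher genes was 2. Ccn4 rose from 15.0 ± 2.5 to 31.3 ± 2.6 CPM (edgeR adjusted p = 2.81e-06, log2 fold change 1.06 ± 0.11) and Ephb3 from 0.764 ± 0.11 to 1.76 ± 0.41 CPM, the latter not past the test without 96 h replicate 3 (log2 fold change 0.99). Birc5, which encodes survivin, fell by 0.58 ± 0.08 and the LIM homeobox gene Isl1 by 0.37 ± 0.08 on the log2 scale. Ccnd1 did not pass (log2 fold change -0.09), Sp5 had 4 summed counts at 0 h and 3 at 96 h, and 5 of the 28 genes had 0 counts in all libraries.

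In the planar polarity list, 18 genes were tested, of which 7 were higher and 7 lower (totals-scaled, 4 and 7). Without 0 h replicate 1, the count of higher genes was 4. Daam2 fell from 21.7 ± 1.4 to 2.97 ± 0.26 CPM (edgeR adjusted p = 6.22e-10, log2 fold change -2.87 ± 0.13) and Prickle1 by 2.63 ± 0.38 on the log2 scale. Nfatc1 rose by a log2 fold change of 0.84 ± 0.15. Prickle3 rose by 1.38 ± 0.47, a call lost on leaving out replicate 1 or 2 at 0 h (1.13 and 1.39) or replicate 1 or 3 at 96 h (0.99 and 1.41). Beside the fall of Ctnnb1, 4 of 8 tested cadherin and catenin genes were lower and 2 higher (totals-scaled, 4 and 0). The plakoglobin gene Jup, the closest relative of β-catenin, fell from 76.4 ± 3.6 to 43.4 ± 2.0 CPM (log2 fold change -0.82 ± 0.06), and Ctnnal1 by 1.13 ± 0.22 on the log2 scale. Of the 2 higher genes, Cdh2 (log2 fold change 0.59 ± 0.14) did not pass when totals-scaled (0.34), and Ctnna2 (0.30 ± 0.12) passed in no fit that left out 1 library (0.24 to 0.33) and not with the replicate number as a block (0.30).

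**Figure D3:**
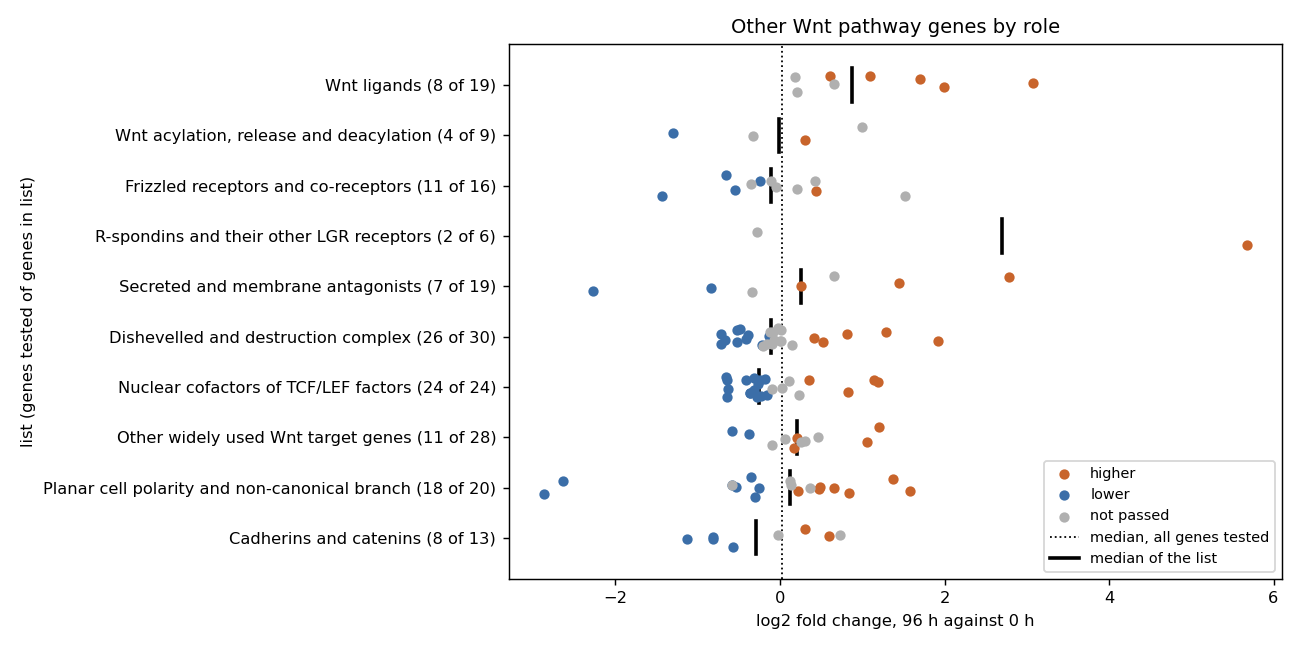
Log2 fold change (96 h against 0 h) of the 119 tested Wnt pathway genes outside the 10, in 10 lists by role, with the number tested of the number listed. Points are genes (orange higher, blue lower, grey not past the test), black bars list medians and the dotted line the median of all genes tested (0.03). The ligands hold 5 higher and 0 lower genes (62.5% called). The nuclear cofactors hold 16 lower and 4 higher (83.3% called), beside 57.4% called of all genes.

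Lef1 and Tcf7 also mark T lymphocytes. Of 9 T lymphocyte markers with a row in the table, Cd3g, Cd4, Cd2 and Il7r had 0 counts in all libraries and Ptprc at most 0.117 CPM in any library. The list summed to 3.18 to 5.01 CPM at 0 h and 10.2 to 13.2 CPM at 96 h, most of it from Lck, which went from 2.38 ± 0.66 to 8.84 ± 1.3 CPM, and Cd3e. Fibroblast and mesenchymal markers summed to 6.38 to 6.66 CPM at 0 h and 18 to 21.1 CPM at 96 h, with 3 of 10 higher and Col3a1 and Lum at 0 counts. Schwann and glial markers summed to 10.5 to 11.7 and 13.7 to 17.5 CPM, with 1 of 8 higher. Epithelial markers summed to 8.66 to 9.72 and 15.7 to 16.7 CPM, with 1 of 8 higher, Grhl2, and Krt5 and Krt18 at 0 counts. The part of these marker changes in the Wnt results was not tested. In bulk RNA, more cells with a transcript and more transcript per cell cannot be told apart.

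The genes whose pattern over the 6 libraries was most like that of Lef1 were sought among 12136 tested genes outside the set, by the distance between log2 CPM profiles centred on each gene's mean. They were Spp1 (distance 1.15), Snord50b (1.41), Csn3 (1.42), Sptb (1.83) and H2-M10.1 (1.88). Like Lef1, each was under 0.2 CPM in the mean of the 0 h libraries, and their 96 h means ran from 11.3 CPM (H2-M10.1) to 64.5 CPM (Csn3). Snord50b, a small nucleolar RNA gene, and H2-M10.1, of the MHC family, may have counts split with related or overlapping genes. For Axin2 the 5 nearest were Edem2 (distance 0.156), Iqck (0.248), Tspyl4 (0.248), Nat9 (0.249) and Ryr1 (0.259), with log2 fold changes of 0.83 (Ryr1) to 1.09 (Tspyl4). The libraries differ mainly by group, so many genes share such a profile: Pearson's r was over 0.95 for 1438 genes with Lef1 and for 539 with Axin2, and none of the 5 nearest genes of either was among its 5 highest by r.

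**Figure D4:**
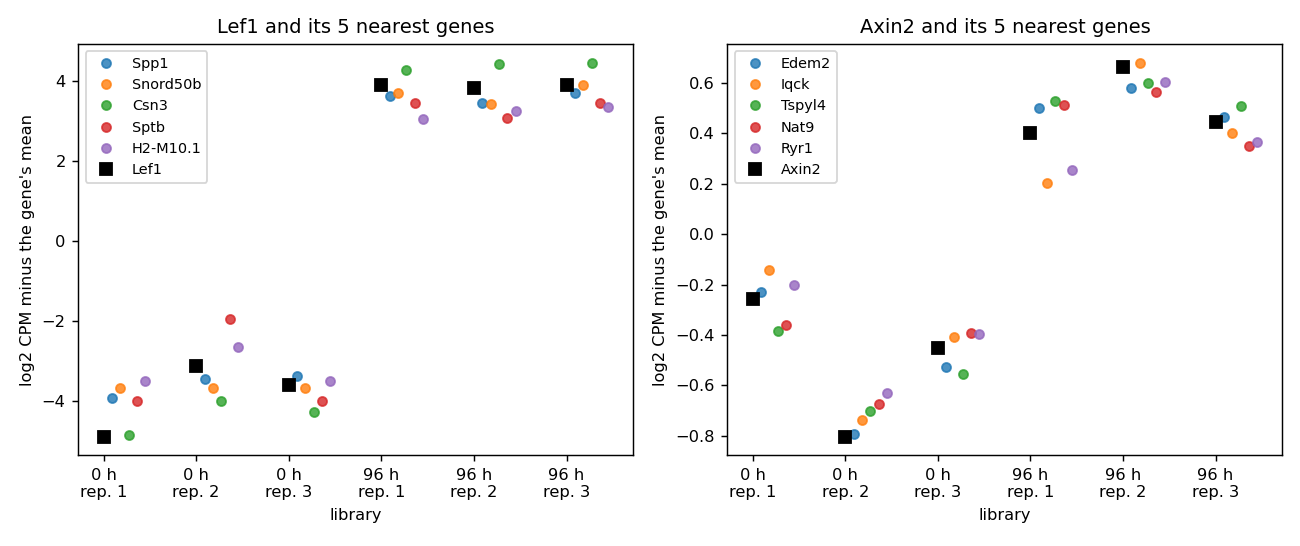
Profiles of Lef1 (left) and Axin2 (right; black squares) and of the 5 genes nearest to each (coloured points, set slightly apart) over the 6 libraries, as log2 CPM minus the gene's own mean. In both panels all 0 h values lie below 0 and all 96 h values above it, over a span of about 9 log2 units for Lef1 and under 2 for Axin2.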

How the data were processed

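RNA was measured in 6 libraries of N2A-A5 cells, 3 per group, grouped by sample title. Per the labels' protocols, ribosomal RNA was depleted and libraries were made with a stranded total RNA kit. The submitters' processing notes name FastQC 0.12.1, Salmon 1.10.1, DESeq2 1.52.0 and build mm39; what each tool did, the annotation and the strand setting are not given. The deposited table holds each gene's estimated counts, which the authors left unnormalised as far as the values show (library totals differ). Counts were rounded and fitted in edgeR 4.0.16 (R 4.3.3) with filterByExpr, TMM and the quasi-likelihood F test over 13705 genes, with Benjamini-Hochberg adjustment. SEs were taken as the absolute log2 fold change over the root of F, and values after ± beside CPM are SD (n = 3). The procedure was run on simulated data with 200 of 12876 genes changed. The changed genes all had a 0 h mean over 2 CPM, so recovery at lower levels was not measured. Among them the procedure recovered 88% of 2-fold changes and 58% of the smaller ones. Of its 155 calls, 9 were false. Far fewer genes changed there than were called in the data, so it does not test the scaling.

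The members and lists were chosen with earlier results of these data known. The text names all members, up to 2 higher and 2 lower genes per list (passing, not overlapping, at least 1 CPM, largest change first), and the 5 genes nearest Lef1 and Axin2 (Gm and Rik genes left out); a few others, such as Tle1, Tle4, Gsk3a, Gsk3b, Ccnd1, Sp5 and Lgr4, were named after their values were seen. RNA lengths came from GENCODE M21 in place of RefSeq (193 of 194 symbols matched). Alternatives were other scalings, filters and tests (DESeq2 1.42.0, limma-voom 3.58.1), a block for the replicate number and leaving out each library. Some marker genes are not reported here.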

Additional observations from a re-analysis of the deposited data

How the results depend on the processing

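Among 38 named genes that passed, 30 kept direction and call under each of the 16 alternatives in which they were tested. Wnt6 was not tested under the stricter filter. The other 8 lost the call under at least 1, and none changed sign. The list genes were named for passing this test with the largest changes, and the members with this contrast known. Their stability was therefore partly set in advance. Of the named genes that did not pass, Nkd1 changed sign when scaled by library totals alone (-0.20), without 0 h replicate 1 (-0.18) and without 96 h replicate 2 (-0.37); leaving out 1 library gave -0.37 to 0.27 (0.2651 without 96 h replicate 3). With library totals alone, higher calls fell to 2409 over all genes and to 21 over the Wnt genes outside the members; the cause was not tested. The Lef1 share at 96 h was 68.8%, 65.3% with median RNA length and 73.8% with no length correction, and 68.0% to 69.4% with 1 library left out. Leaving out 1 library gave 3458 to 3796 higher and 3683 to 3807 lower genes, 26 to 31 and 42 to 45 Wnt genes, and 3 or 4 and 2 members. Same-numbered libraries did not deviate together (r = -0.0136, 0.0144 and -0.00496), and unlike-numbered ones gave r of like size (-0.0139 to 0.018). Whether the numbers pair the libraries by culture or day cannot be told from these values. With the replicate block 3854 genes were higher and 3858 lower, and 32 and 45 Wnt genes. Depth limits Rnf43, Lgr5, Nkd1 and Tcf7l1, and the 0 h level of Lef1.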
